A study of Mus musculus with 10 samples.

Results

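Forkhead box (Fox) genes encode transcription factors that bind DNA through the winged-helix forkhead domain. Several of them, above all the Foxa proteins, are known as pioneer factors that open closed chromatin. In the gastrulating mouse embryo Foxa2 marks the node, notochord and definitive endoderm, Foxh1 carries the Nodal signal together with Smad proteins, Foxc1 and Foxc2 pattern the paraxial mesoderm, and Foxj1 drives motile cilia. Other members act in nearly every cell, among them the Foxo factors, which insulin signalling keeps out of the nucleus. Starts of transcription factor genes usually lie in CpG islands, stretches rich in CpG that are mostly free of methylation.

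The family was taken as the autosomal protein-coding genes whose symbol is Fox, a letter from a to s and a number, with at least 3 measured cytosine positions within 1000 bp of a gene end. Of 41 autosomal genes with such a symbol, 38 met this rule, out of 14236 autosomal protein-coding genes that did. Foxa1 was the least covered member, with 10 positions at its start side, and Foxf1 the best covered, with 238. Foxr1, just outside the rule, had 2 positions at an end, with a level of 75.8%, and Foxi2 and Foxn1 had 0 at both ends. Inside these last genes, Foxi2, which acts in the inner ear, had a level of 28.5% over 18 positions and Foxn1, needed for the thymus and for hair, 51.6% over 34 positions. Foxo4, Foxp3 and Foxr2 lie on the X chromosome and were left aside.

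The series measured DNA methylation by reduced representation bisulfite sequencing, which reads cytosines in CpG-rich sequence, in mouse embryos at embryonic day 7.5. It holds 5 samples titled arsenic and 5 titled control, and its stated aim is to compare these groups. The sources used here do not give the dose, route or time of arsenic exposure, the strain, the sex or the number of embryos in a sample. The protocol text also speaks of sperm DNA, although each of the 10 samples is labelled as embryos. The table of counts has 10 sets of columns that carry only the numbers 1 to 10, and 0 of them could be tied to a sample. No comparison of arsenic with control was therefore made, and no test over samples was possible. Values below are levels over the reads of all columns, followed where it matters by the lowest, the median and the highest of the 10 library columns. Any effect of arsenic would lie within that spread without being visible as such.

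A level is the share of reads that called the cytosine methylated, in percent, with both strands of a CpG counted as separate positions. The table holds 2101419 autosomal positions, each read at least 10 times in each column, and the summed coverage of a column ranged from 73509873 to 127743904 reads. At the 38 members 3325 positions lay within 1000 bp of an end, and the start side of a member rested on 6012 to 90516 calls. Which gene end is the start was known for 23 members from a RefSeq promoter table. For the other 15 the end with more measured positions stands in for the start side and may be the 3' end. The start-side window of 12 members also overlaps another annotated gene.

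The letters around 5 starts are shown because they range from the CpG-poor and most methylated to the CpG-rich and least methylated promoters of the family; they were chosen after the levels were seen. Each runs 5' to 3' on the strand of the gene, from 250 bases before to 50 after the start, as RefSeq gives it for GRCm38.p6, the assembly behind mm10. Capitals mark the CpGs at which methylation was measured. The windows are chr11:34208040-34208339 on the minus strand for Foxi1, chr4:114926018-114926317 on the minus strand for Foxe3, chr2:148046920-148047219 on the minus strand for Foxa2, chr4:99656049-99656348 on the plus strand for Foxd3 and chr10:42276646-42276945 on the minus strand for Foxo3.
Foxi1: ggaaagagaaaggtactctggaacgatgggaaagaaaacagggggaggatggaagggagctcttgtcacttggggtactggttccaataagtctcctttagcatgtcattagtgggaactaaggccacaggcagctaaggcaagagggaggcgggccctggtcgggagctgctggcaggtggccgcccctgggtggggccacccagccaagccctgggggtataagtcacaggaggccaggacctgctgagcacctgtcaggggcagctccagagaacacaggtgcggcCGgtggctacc
Foxe3: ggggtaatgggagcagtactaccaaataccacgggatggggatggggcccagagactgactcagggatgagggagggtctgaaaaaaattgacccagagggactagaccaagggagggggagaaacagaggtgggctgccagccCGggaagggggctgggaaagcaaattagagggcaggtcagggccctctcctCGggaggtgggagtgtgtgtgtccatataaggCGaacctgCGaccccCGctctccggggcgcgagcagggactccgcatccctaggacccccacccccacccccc
Foxa2: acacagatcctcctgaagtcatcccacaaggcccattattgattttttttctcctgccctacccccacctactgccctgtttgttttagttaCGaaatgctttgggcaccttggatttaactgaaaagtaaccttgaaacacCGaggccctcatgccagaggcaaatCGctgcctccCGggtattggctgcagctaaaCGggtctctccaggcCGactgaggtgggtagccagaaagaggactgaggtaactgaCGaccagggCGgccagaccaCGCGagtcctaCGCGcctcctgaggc
Foxd3: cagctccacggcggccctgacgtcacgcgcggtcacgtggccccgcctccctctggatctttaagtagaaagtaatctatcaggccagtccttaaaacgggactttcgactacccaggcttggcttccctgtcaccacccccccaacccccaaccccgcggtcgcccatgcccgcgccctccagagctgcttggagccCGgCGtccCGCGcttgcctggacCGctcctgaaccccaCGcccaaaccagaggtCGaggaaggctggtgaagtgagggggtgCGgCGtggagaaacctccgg
Foxo3: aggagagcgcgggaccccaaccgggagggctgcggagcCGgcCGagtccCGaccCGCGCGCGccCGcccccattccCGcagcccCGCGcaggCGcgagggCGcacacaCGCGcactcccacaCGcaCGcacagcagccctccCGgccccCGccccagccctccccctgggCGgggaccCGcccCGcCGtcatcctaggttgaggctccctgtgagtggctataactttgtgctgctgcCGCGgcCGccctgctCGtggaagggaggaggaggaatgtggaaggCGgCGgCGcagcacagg

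The Foxi1 window held 6 CpGs, and the single one measured, at base 290, had a level of 45.8%, with columns from 0 to 80%. In the Foxe3 window 5 of 10 CpGs were measured, with a level of 17.8% and columns from 9.84 to 36.5%. The level there was 33.6% at the CpG at base 145 and 7.82% at base 236, so that the CpGs before the start were unevenly methylated. All 12 CpGs of the Foxa2 window were measured, and their joint level was 5.28%, with a highest CpG of 21.0% at base 93 and a lowest of 0.794% at base 275. The Foxd3 window had 9 of 25 CpGs measured at 7.89%, and its extremes were neighbours, 24.9% at base 199 and 2.71% at base 202. The Foxo3 window had 30 of 35 CpGs measured at 0.795%, and its highest CpG, at base 39, reached 6.93%. Methylation was thus near 0 along the whole measured part of the Foxo3 start, and patchy in the other windows with several measured CpGs.

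Fox promoters were richer in CpG than those of coding genes at large. The 27 promoter windows of 23 members had a median of 25 CpGs, against 14 in the 20085 windows of 16457 autosomal coding genes. Their median ratio of observed to expected CpGs was 0.758, against 0.586, and 20 of 27 windows, or 74.1%, had a ratio of 0.6 or more, against 48.9% of all windows. A measured position was present in 15 Fox windows, or 55.6%, against 42.2% of all windows. The letters CCGG, which are their own reverse complement and at which the enzyme commonly used in this assay cuts, were present in 22 Fox windows, or 81.5%, against 63.5%. Where CCGG was present, 68.2% of Fox windows and 66.0% of all windows held a measured position. The ratio was 0.232 for Foxi1, 0.345 for Foxe3, 0.548 for Foxa2, 0.793 for Foxd3 and 0.834 for Foxo3. Level did not fall with the ratio throughout, since Foxd3 at 7.89% was above Foxa2 at 5.28%.

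Nearly all Fox genes carried little methylation at the start side. The level was under 20% in 36 of 38 members, or 94.7%, against 80.9% of 13294 coding genes measured there. The median level was 3.38%, with the median of the columns running from 2.72 to 3.90%, against 2.40% and columns from 2.32 to 2.67% for all coding genes. Few Fox genes were at the very bottom of the scale. A level under 1% was found in 2 members, Foxn2 and Foxo3, or 5.26%, against 19.3% of all coding genes, and a level between 5 and 20% in 14 members, or 36.8%, against 17.9%. Each single start-side position was under 20% in 18 members, or 47.4%, against 55.0% of all coding genes. The exceptions at 20 to 80% were Foxs1 and Foxi1, against 18.6% of all coding genes.

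**Figure D1:**
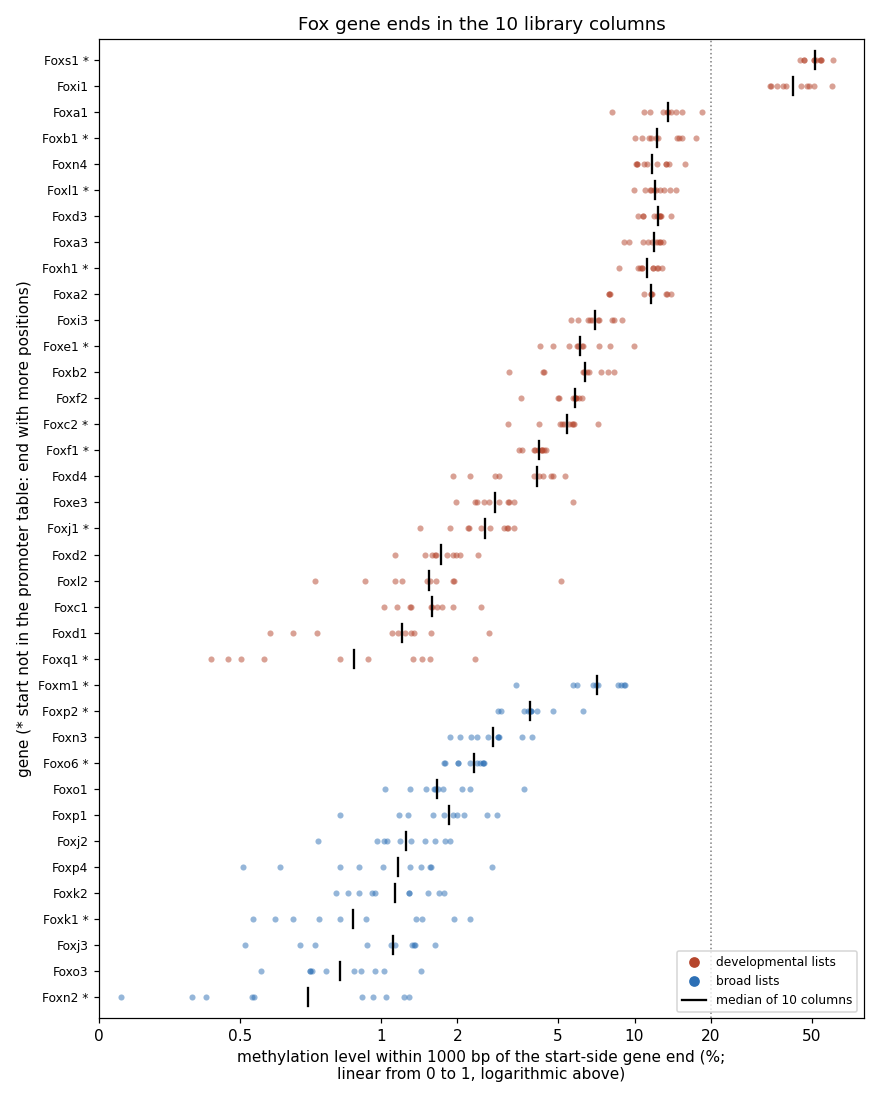
Methylation level within 1000 bp of the start-side gene end (x axis, percent, linear up to 1 and logarithmic above) of 37 Fox genes (y axis), with 1 point for each of the 10 library columns, a bar at their median and a dotted line at 20%; genes of the developmental lists are in red above those of the broad lists in blue. Foxs1 and Foxi1 lie right of the line in all 10 columns, and Foxn2 and Foxo3 have the lowest levels.

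The lists by role differed in level, and also in gene length. Members that act in particular tissues or stages, the developmental lists of 25 genes, had a median start-side level of 6.13%, and the median of the columns ran from 4.78 to 7.19%. The 13 members listed as broadly expressed or as controlling growth and insulin responses had a median of 1.33%, with columns from 1.29 to 1.77%. These column ranges did not overlap, but they show the spread between libraries and not that between genes. The levels of single genes did overlap, from 1.01 to 51.0% in developmental and from 0.702 to 7.39% in broad members. The lists were drawn up with earlier results of these data known. A level of 5% or more was found in 15 of 25 developmental members, or 60%, and in 1 of 13 broad members, or 7.69%, against 37.0% of all coding genes. A level of 10 to 20% was found in 8 developmental members and 0 broad ones, against 7.59% of all coding genes. Foxa1 and Foxn4 are among these 8, and their starts in the promoter table lie inside the outer gene end. With only the genes whose start side is known, the medians at the outer gene end were 6.13% for 15 developmental and 1.31% for 8 broad members.

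Gene length moved with the division by role. Up to 5000 bp long were 21 of the 25 developmental members and 0 of the 13 broad ones. Coding genes at large also differed by length, with a median start-side level of 4.87% and 49.5% of genes at 5% or more among short genes, against 2.20% and 34.9% among longer ones. The 21 short Fox genes had a median of 5.17%, and 52.4% of them were at 5% or more, shares near those of short coding genes. The 4 longer developmental members, Foxa1, Foxa3, Foxf2 and Foxn4, lay between 5.53 and 13.3% at the outer gene end, with a median of 11.8%. Around their starts in the promoter table, 1918 and 657 bp inside that end, Foxa1 had 1.27% and Foxn4 9.35%. Of the 13 broad members, all of them longer, 1 lay at 5% or more. The part of length in the difference between the lists was not tested.

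The 3 Foxa genes, which open chromatin in the endoderm, were all between 10 and 20%. Foxa1 had a level of 13.3%, with columns from 8.17 to 18.4% and a median of 13.5%. This was the third widest range of the family, and it rested on 10 positions, all outside the gene. The promoter table puts the start of Foxa1 1918 bp inside the outer gene end, and around that start 43 positions had a level of 1.27%, with columns from 0.196 to 2.22%. The promoter window at that start held 0 measured positions, so the start itself was not measured. The measured sequence around it was nearly unmethylated, and the level of 13.3% belongs to sequence farther upstream.

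Foxa2 had a start-side level of 11.0%, with columns from 7.96 to 13.9% and a median of 11.6%. Inside the gene 15 positions had 3.31% and outside it 13 positions had 20.7%, and the inside was lower in each column. Around its inner starts, 1021 and 1505 bp into the gene, the levels were 5.03% and 5.83%. Foxa3 had 11.4%, with columns from 9.11 to 13.0% and a median of 11.9%, and its parts ran the other way round. Its inside had 21.3% over 35 positions, with columns from 18.0 to 25.0%, and its outside, which overlaps Sympk, 1.25% over 52 positions, with columns from 0.65 to 1.93%. Foxa2 and Foxa3 thus had nearly the same level over the whole window with methylation on opposite sides of the gene end. Farther inside, Foxa1 had 11.3% and Foxa2 13.1%, whereas Foxa3 had 44.8%, with columns from 41.2 to 48.5%.

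Foxh1, the partner of Smad2 and Smad3 in Nodal signalling, was measured at both ends, and which end is its start was not known here. The end with fewer measured positions, which overlaps Ppp1r16a, had a level of 0.762% over 26 positions, with columns from 0.36 to 1.51% and a median of 0.77%. The end with more positions, which overlaps Kifc2, had 11.1% over 44 positions, with columns from 8.65 to 12.8% and a median of 11.2%. The columns of the ends did not overlap. Between them the inside of Foxh1 had 22.1%, with columns from 18.2 to 26.9%.

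The genes of the Nodal pathway around Foxh1 were all measured, 15 of 15 on the list, and 12 of them were under 20% at the start side, a share of 80%, near the 80.9% of all coding genes. The median of the list was 1.73%, against 2.40%. Nodal, the ligand, had a level of 5.46%. The receptor genes Acvr1b, Acvr2a and Acvr2b had 1.41, 0.751 and 0.929%, and Smad2, Smad3 and Smad4, which carry the signal to the nucleus, had 1.09, 1.37 and 1.01%. The 3 exceptions were all genes of extracellular regulators. Lefty1 and Lefty2, inhibitors of Nodal, had 33.6% and 51.1%, the second over 3 positions, and Tdgf1, the co-receptor Cripto, had 31.5%. The start of Lefty1 and Lefty2 was not known. Among targets, Gsc had 6.42%, Lhx1 2.83%, Eomes 1.73% and Mixl1 1.62%.

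The mesoderm and vessel genes, 6 in number, ranged most widely. Foxc1 had 1.55%, with columns from 1.02 to 2.49% and a median of 1.58%, and Foxc2 5.17%, with columns from 3.16 to 7.19% and a median of 5.41%. The columns of these genes did not overlap. The difference lay outside the gene: the inside of Foxc1 had 1.40% and that of Foxc2 1.80%, and the outside 4.88% and 14.8%. Foxf1, of the lateral and extraembryonic mesoderm, had 4.11%, with columns from 3.50 to 4.47% and a median of 4.22%. Foxf2 and Foxl1, of the gut mesenchyme, had 5.53% and 12.2%.

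Foxs1, a gene of pericytes and peripheral neurons, was the most methylated Fox gene, with a start-side level of 51.0%, columns from 44.8 to 60.5% and a median of 51.5%. Its 31 positions lay between 32.7 and 63.2%, none of them under 20%. Its other end had 50.9% over 28 positions, with columns from 44.4 to 60.3%, and the flank upstream of the start side had 48.2%, so that no dip was seen at the gene. The windows of its ends overlap, since the gene is short, and which end is the start was not known.

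Among the 11 measured genes of ectoderm, brain, sense organs and neural crest, 10 were under 20%, or 90.9%, against 80.9% of all coding genes, with a median of 6.13%. Foxi1, a factor of the inner ear and of intercalated cells of the kidney, was the exception at 44.2%, with columns from 34.2 to 60% and a median of 42.3%. This range of 25.8 points was the widest of the family, and 1 of its 22 positions was under 20%. Its relative Foxi3, of the ear and pharyngeal region, had 6.99%, below Foxi1 in each column. Foxd3, which maintains pluripotent cells and later neural crest, had 12.1%, with columns from 10.3 to 13.9% and a median of 12.4%. Foxb1, of the hypothalamus, had 13.1%, with columns from 10 to 17.4% and a median of 12.3%.

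Other genes of this list lay lower. Foxd1, of the kidney stroma, had 1.30%, and Foxd2 1.77%. Foxe3, of the lens, had 3.07%, Foxd4 3.69%, Foxb2 6.13% and Foxe1, of the thyroid, 6.46%. The related Foxd genes therefore differed: the lowest column of Foxd3, 10.3%, was above the highest columns of Foxd1 at 2.66%, Foxd2 at 2.41% and Foxd4 at 5.31%.

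Foxj1, the master regulator of motile cilia and so of the cilia of the node, had 2.52%, with columns from 1.42 to 3.35% and a median of 2.58%; its start was not known, and the window overlaps Rnf157. Foxn4, of retina and spinal cord interneurons, had 12.2%, with 7.71% inside and 21.9% outside the gene. Around its start in the promoter table, 657 bp inside the outer end, it had 9.35%. Foxl2, of the ovary, had 1.72% and Foxq1, of hair and stomach, 1.01%. Foxq1 was the third lowest of the family after Foxn2 and Foxo3, with columns from 0.39 to 2.36% and a median of 0.90%.

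The insulin and growth list held the Foxo genes and Foxm1. Foxo3 had 0.915%, with columns from 0.576 to 1.44% and a median of 0.855%, Foxo1 1.86% and Foxo6 2.24%. Foxm1, which drives the entry into mitosis, was the exception among the broad members, with 7.39% and columns from 3.40 to 9.19%; its start was not known, and its window overlaps Rhno1. Of the 14 genes on the list of the insulin pathway that controls Foxo, 11 were measured at the start side, with a median of 1.95%, against 2.40% for all coding genes. Of these 10 were under 20%, or 90.9%, against 80.9%. Igf1r, the growth factor receptor, had 0.890% and Sirt1, a deacetylase of Foxo proteins, 0.755%. Sgk1, a kinase that phosphorylates Foxo proteins, had 34.7%, with columns from 30.4 to 44.3%.

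The 9 members listed as broadly expressed had a median of 1.29%. Their expression was not measured here. Foxn2 had the lowest level of the family, 0.702%, with columns from 0.08 to 1.29% and a median of 0.74%. Foxj3 had 1.07%, Foxk1 1.08%, Foxk2 1.21%, Foxp4 1.29% and Foxj2 1.33%, and the columns of these genes overlapped. Foxp1, Foxn3 and Foxp2, which are very long genes, had 1.85, 2.79 and 4.15%. The value of Foxp1 belongs to its outer gene end, and its 3 starts in the promoter table lie inside the gene. Around the start 1753 bp inside the level was 3.90%, and around that 494448 bp inside 1.69%. Around that 256231 bp inside it was 32.4% over 10 positions, with columns from 24.0 to 37.3%. The promoter window of this last start held 0 measured positions.

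The sides of the gene end were compared within genes. At least 3 positions on each side of the start-side end were measured in 23 members. The inside was lower than the outside in all 10 columns in 7 of them, or 30.4%, against 28.0% of 6569 coding genes, and higher in all columns in 4, or 17.4%, against 11.6%. The family as a whole was thus near the background. All 7 with the lower inside were among the 14 developmental genes measured on both sides: Foxa2, Foxc2, Foxd3, Foxe3, Foxf2, Foxi3 and Foxn4. Of the 9 broad genes 0 had a lower inside in all columns. The inside was higher in all columns in 2 developmental genes, Foxa3 and Foxf1, or 14.3%, and in 2 broad genes, Foxn3 and Foxo6, or 22.2%. The difference between the lists was not tested. The inside minus the outside was lowest in Foxa2, at -17.3 points, and highest in Foxa3, at 20.1 points.

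Away from the start, the division by role was wider than at the start itself. The inside of the gene, more than 1000 bp from both ends, was measured in 32 members, and it was under 20% in 16 of them, or 50%, against 9.12% of 13910 coding genes. The 19 developmental members had a median of 11.8%, and 14 of them, or 73.7%, were under 20%. The 13 broad members had a median of 55.6%, and 2 of them, Foxo1 at 17.7% and Foxo6 at 17.0%, were under 20%. All coding genes had a median of 58.2%. With the start known, the medians were 11.5% for 10 developmental and 53.4% for 8 broad members.

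The lowest insides were those of Foxd1 at 0.973%, Foxq1 at 1.17%, Foxl2 at 1.63%, Foxe1 at 2.11% and Foxc1 at 3.36%. Foxb1 had 13.2% and Foxf1 18.1%, whereas Foxn4 at 54.7% was the highest developmental member. Among the broad members, Foxk2 had 86.2% over 6 positions, Foxj3 81.9%, Foxm1 75.0% and Foxk1 73.7%. Foxn3, measured at 733 inside positions, had 61.7%, Foxp1, at 681, had 55.9%, and Foxo3 had 50.4%. Most developmental members measured inside were thus low there, and most broad members were not.

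**Figure D2:**
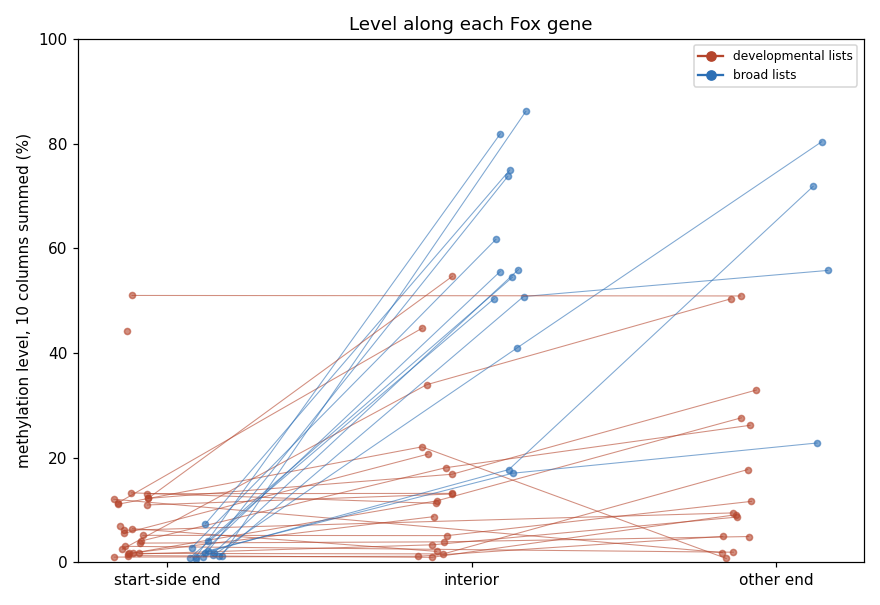
Methylation level over the summed columns (y axis, percent) of each Fox gene within 1000 bp of the start-side end, in the interior and within 1000 bp of the other end (x axis), with 1 point for each gene and place that had at least 3 positions and a line joining the places of a gene; developmental lists are in red and broad lists in blue. Interior levels have a median of 11.8% in developmental and 55.6% in broad members.

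The inside of a short gene lies close to its start. Of the short members, all developmental, measured inside, 13 of 15, or 86.7%, were under 20%, against 36.5% of 762 coding genes of that length, and the medians were 8.73% and 39.2%. The long members had an inside median of 54.5%, against 58.8% for long coding genes, and 3 of 17 were under 20%, or 17.6%, against 7.54%. The 4 longer developmental members had a median of 32.7%, against 55.6% for the broad members, and 1 of them, Foxa1, was under 20%.

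The other end was measured in 19 members, and 10 of them, or 52.6%, were under 20% there, against 18.9% of 4964 coding genes. The median was 17.7%, with columns from 11.5 to 20.9%, against 59.3%, with columns from 57.4 to 62.3%. The 15 developmental members had a median of 9.45% and the 4 broad ones 63.8%. The other end was above the start side in all 10 columns in 14 of 19 members, or 73.7%, against 75.0% of coding genes, a share near the background. It was below it in all columns in Foxd3 and Foxh1, or 10.5%, against 8.58%.

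The largest differences between ends belonged to broad members. Foxj2 had 80.4% at the other end, with columns from 71.4 to 84.4%, and 1.33% at the start, a difference of 79.0 points. Foxo1 had 71.8% at the other end, with columns from 60.6 to 85.4%, and Foxp4 55.8%, with columns from 49.7 to 61.7%, and these ends lay 70.0 and 54.5 points above the start. Foxo6 had 22.8%, with columns from 14.9 to 28.1%. In all 4 genes the columns of the ends did not overlap. Which end of Foxo6 is the start was not known.

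Several developmental members were intermediate at the other end. The start of Foxj1, Foxl1, Foxf1, Foxc2 and Foxq1 was not known, so their other end is the end with fewer positions. Foxj1 had 50.3% over 6 positions, with columns from 39.5 to 57.1%, Foxl1 32.9% over 4 positions, with columns from 22.7 to 40.9%, Foxd2 27.6% over 7 positions, with columns from 11.5 to 45.1%, and Foxf1 26.2% over 13 positions, with columns from 20.4 to 33.8%. Others stayed low to the end: Foxc1 had 8.65%, with columns from 6.61 to 12.2%, Foxc2 11.7%, Foxd1 9.12%, Foxq1 4.97%, Foxd4 4.94% and Foxl2 17.7%. Foxb2 had 9.45% and Foxe3 1.95%, but both genes are so short that the windows of their ends overlap. Foxd3 ran the other way, with 1.87% over 28 positions at its other end, columns from 0.95 to 3.16% and a median of 1.86%, against its 12.1% at the start.

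Low methylation also reached outside the developmental genes. The flank, 2000 to 5000 bp outside the start-side end, was measured in 23 members. It was under 20% in 12 of them, against 16.1% of 5493 coding genes, and the median was 19.1%, against 53.7%. All 12 were developmental members, whose median over 17 genes was 16.6%, while the 6 broad members had a median of 54.5% and 0 under 40%. The lowest flanks were those of Foxl1 at 9.42%, Foxc2 at 11.6%, Foxa2 at 12.1%, Foxf1 at 12.6% and Foxd3 at 13.2%. Foxh1 at 75.3%, Foxj1 at 68.7% and Foxs1 at 48.2% were the developmental genes with the highest flanks, and Foxo3 at 43.7% was the lowest of the broad ones.

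The stretch of measured positions under 20% around the start-side end, with gaps of up to 1000 bp allowed, had a median width of 913 bp in Fox genes, against 487 bp in 12207 coding genes. It was 2000 bp or more in 10 members, or 26.3%, against 3.30%. The width also depends on where positions were measured. The median number of start-side positions was 67 in Fox genes and 35 in all coding genes, and its part in the width was not tested. Foxp1 had the widest stretch, 3217 bp, followed by Foxc1 with 2670 bp, Foxd1 with 2456 bp and Foxl2 with 2391 bp. The position nearest to the gene end was itself at 20% or more in 3 members, Foxs1, Foxi1 and Foxh1, or 7.89%, against 16.8%. Developmental members had a median width of 580 bp and broad ones 1055 bp. The widest stretches ran the other way: 8 of 25 developmental and 2 of 13 broad members reached 2000 bp or more.

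The course of methylation was followed from the outer gene end in the genes whose start side is known. This end is not the table's start in Foxa1, Foxn4, Foxp1 and Foxn3, for which the table places it inside the gene, in Foxn3 by 113593 bp. In the 500 bp inside the gene end, the median gene level was 3.23% over 14 developmental genes and 1.07% over 6 broad genes. In the 500 bp outside it was 7.31% and 0.896%, and in the next 500 bp 12.8% and 1.66%. From 3000 to 3500 bp outside it was 19.8% over 5 developmental genes and 48.9% over 2 broad genes. The developmental median was thus the higher one near the gene end, and the lower one from 3000 to 3500 bp outside. From 2000 to 2500 bp inside, the medians were 13.9% over 6 developmental genes and 9.43% over 4 broad genes. Few broad genes were measured far from the end, and the genes differ between bins, so the steepness of the edges was not compared.

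**Figure D3:**
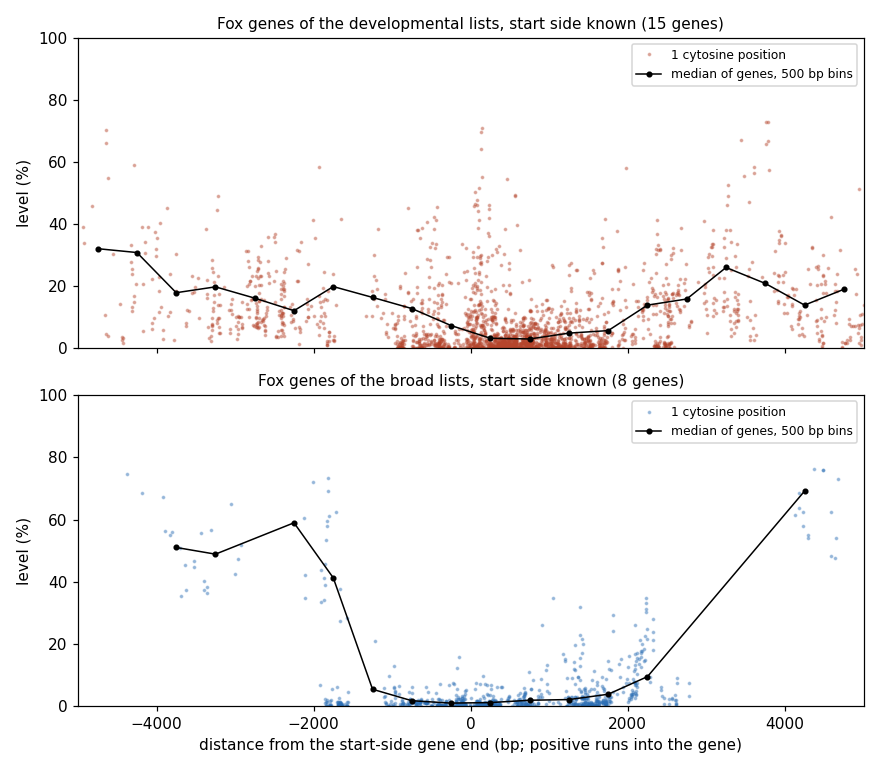
Methylation level (y axis, percent) of single cytosine positions (dots) against the distance from the start-side gene end (x axis, bp, positive into the gene) for the 15 developmental (top) and 8 broad (bottom) Fox genes with a known start, with the median of gene levels in bins of 500 bp as a black line. The median is 3.23% in the first 500 bp inside developmental genes and 1.07% in broad genes.

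Low methylation extended between neighbouring Fox genes to different degrees. Foxf1, Foxc2 and Foxl1, mesoderm genes in a row at chr8:121083386-121131644 (mm10), span 48259 bp. The 828 positions of this region had a level of 12%, with columns from 11.0 to 13.7%, while the mean position of chromosome 8 was at 41.6%. Of these positions 82.2% were under 20%, against 34.3% of those on chromosome 8. Positions in the genes or within 1000 bp of them had a mean of 7.96%, and the 259 positions between them 21.6%, of which 64.5% were under 20%. Most measured positions between these genes were thus low as well. Highly methylated positions between Foxf1 and Foxc2 were the exception, and wide intervals between the genes held no measured position.

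Foxq1, Foxf2 and Foxc1 lie farther apart at chr13:31557170-31811635 (mm10), over 254466 bp. Positions in and near these genes had a mean of 4.19%, but the 202 positions between them had 40.6%, close to the chromosome mean of 42.8%. Of the positions between them 25.2% were under 20%, below the 32.4% of chromosome 13. Foxd2 and Foxe3, at chr4:114905280-114927067 (mm10), are 21788 bp from outer edge to outer edge, 1000 bp on each side included. This region had the lowest level of the 3, 4.39% over 335 positions, with columns from 3.12 to 5.42%. Of its positions 312 lay in or near the genes, against 569 of 828 and 633 of 835 in the other regions. The mean of these 312 was 4.27%, near the 4.19% of the chromosome 13 region. The 23 positions between the genes had a mean of 18.0%. They lay on the Foxd2 side, and the wide interval from them to Foxe3 held no measured position.

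**Figure D4:**
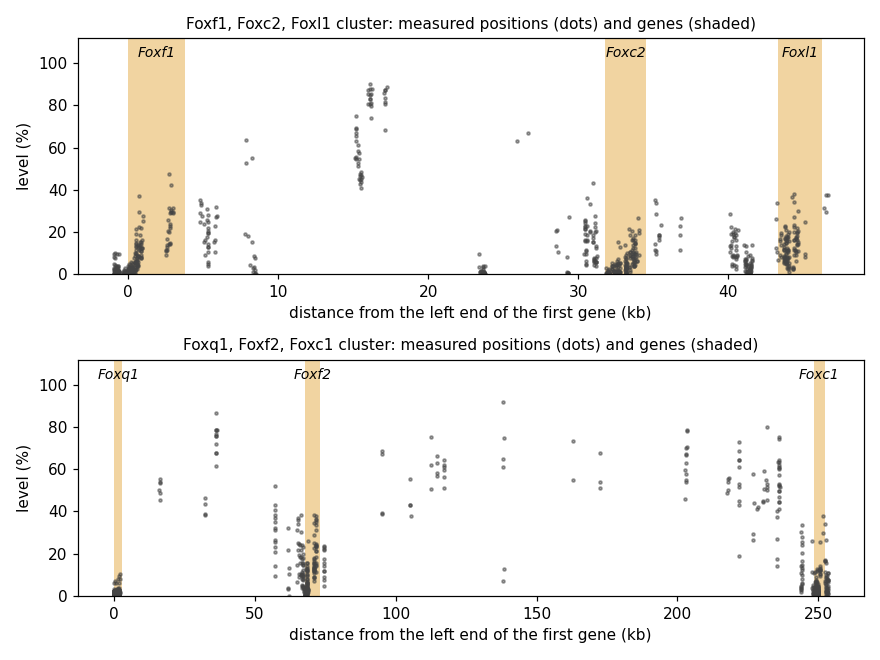
Methylation level over the summed columns (y axis, percent) of single cytosine positions (dots) along 2 groups of neighbouring Fox genes, against the distance from the left end of the first gene (x axis, kb), with genes shaded. Positions between genes have a mean of 21.6% in the Foxf1, Foxc2 and Foxl1 region (top) and of 40.6% in the Foxq1, Foxf2 and Foxc1 region (bottom).

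The library columns differed little over the family. The median range of a member over the 10 columns was 2.99 points, against 3.05 points for all coding genes. After Foxi1 the widest ranges were 15.7 points in Foxs1 and 10.3 points in Foxa1. No column stood at the top or bottom throughout. Columns 3 and 7 were each the highest for 6 members, or 15.8%, against 13.8% and 11.4% of all coding genes. Column 10 was the lowest for 7, or 18.4%, against 8.69%, and column 1 for 1, or 2.63%, against 6.10%. For all coding genes, column 9 was most often the highest, in 15.5%, and it was so for 3 Fox genes, or 7.89%.

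Levels at genes of other cell types were read beside the family. Of the germ line markers, Dazl had 37.8%, Mael 44.2% and Sycp3 52.8% at the start side. Of 5 trophoblast markers 4 were measured, with Cdx2 at 0.915%, Eomes at 1.73%, Tfap2c at 12.2% and Esrrb at 37.1%. Of 4 visceral endoderm markers only Hnf4a was measured, at 52.5%, and of 4 decidua markers Hand2 had 3.84%, Hoxa11 6.18% and Hoxa10 6.69%. A level of DNA methylation does not count cells, and the share of each tissue in the samples was not measured.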

How the data were processed

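Embryo DNA was made into reduced representation bisulfite libraries, per the labels' protocols; Trim Galore, Bismark, methylKit and mm10 are named in the submitters' processing notes, without versions or settings. For each cytosine position and column the authors deposited 3 raw counts, which are the reads in total and those called methylated and unmethylated, per the file headers. It lists only positions with 10 or more reads in each of the 10 columns, as checked on the table. Of 2137826 rows, 2 repeated a position and were left out. No molecular identifiers are named, so intervals cover counting error only, and calls of the same read are not independent.

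The planned comparison of arsenic with control was not run, since 0 of the 10 columns could be tied to a sample; the spread over columns is given in its place. Levels are methylated calls over coverage, summed over the positions of a window and not normalized. Gene positions and symbols came from RefSeq tables of GRCm38.p6, which corresponds to mm10. The promoter table gave the strand of 23 of 38 members and of 16457 of 20665 autosomal coding genes, and for the rest the end with more positions was taken as the start side. Of measured cytosines in RefSeq promoter windows, 141264 fell on a CpG of the letters and 4 did not. The inside of a gene excludes 1000 bp at each end. A window needed 3 positions.

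The members, the lists and the grouping into developmental and broad were chosen with earlier results of these data known. Each member is named in its list, apart from values not reported here, and those with a start-side level of 20% or more, the lowest and highest levels, the genes active at gastrulation, the widest column ranges, the largest differences between ends and ends at 20 to 80% are given with their columns; other genes named were chosen after their values were seen. The computation was tested on simulated data. The work was done in Python 3.11.15 with pandas 2.3.3, numpy 2.4.6 and scipy 1.17.1. Alternatives were the window, coverage, number of positions, weighting, choice of start and leaving out a column.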

Additional observations from a re-analysis of the deposited data

Results flagged for a closer look

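In 11 of 87 levels of 37 members, or 12.6%, a single library column lay apart from the other 9 by Dixon's criterion, which sets the gap between a column and its nearest neighbour against the whole range. The criterion picks about 1 in 20 sets of values by chance, and among start-side levels of all coding genes it picked 14.2%. Of the start-side levels of Fox genes alone it picked 7 of 37, or 18.9%.

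At the start side, the highest column was apart in Foxl2 at 5.12%, with the next column at 1.94%, in Foxe3 at 5.69% with the next at 3.33%, in Foxd1 at 2.66% with the next at 1.57% and in Foxp4 at 2.75% with the next at 1.58%. The same held for Foxo1 at 3.66%, with the next at 2.25%, and for Foxo3 at 1.44% with the next at 1.03%. In Foxf2 the lowest column was apart, at 3.56%, with the next at 4.98%. Inside genes the highest column was apart in Foxd1 at 4.03%, with the next at 1.10%, and in Foxl1 at 22.8% with the next at 17.6%. At the other end it was apart in Foxe3 at 8.52%, with the next at 1.81%, and in Foxh1 at 1.51% with the next at 0.944%. Column 4 gave 4 of the 11, including both ends of Foxe3, whose windows overlap.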

How the results depend on the processing

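No paired analysis was possible because the columns carry no group and no replicate number of a group. Leaving out each column in turn kept 36 members under 20% and 14 with the higher other end, and gave a median start-side level of 3.26 to 3.47%, an other-end median of 17.4 to 18.1% and a stretch width of 909 to 929 bp. With windows of 500 bp the start-side median was 2.00%, against 1.44% for all coding genes, the other-end median 27.3%, and 8 of 10 members had the higher other end; with 2000 bp the start-side median was 5.93%, against 5.34%. With 20 reads in each column, 9 of 15 had the higher other end and the width was 545 bp, against 287 bp. With 10 positions per end the other-end median was 9.45% and 8 of 13 had the higher other end. Ending the stretch at 10% gave 380.5 bp, against 301 bp. With known starts only, an alternative chosen after seeing the data, 22 of 23 were under 20%, the other-end median was 9.45% and 8 of 11 had the higher other end. The lower counts come with fewer genes measured; for the other shifts the cause was not tested. The start-side median of Fox genes was above that of all coding genes, and their other-end median below it, under each of these settings. Of 339 member levels recomputed otherwise than by leaving out a column, 37 left the range of the columns. For the levels of windows, 10 reads per column and position add up over each window. Stretch widths and levels of single positions do not gain from this. The width was 545 bp with 20 reads in each column, against 913 bp without this rule. Genes without restriction fragments in the windows are not seen.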
